A study of Homo sapiens with 27 samples.

Results

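PC3 cells carrying RIPK2 guide RNA 2 were compared with PC3 cells carrying control guide RNA 1. PC3 is an established prostate cancer cell line that grows without androgen and was first grown from a bone metastasis. The labels give the control cells as WT and the guide 2 cells as RIPK2 knockout, with 3 libraries in each group. They do not say whether an edited line was a clone or a pool, and each line stands for 1 guide, so what the guide did and what is particular to that cell population cannot be told apart. All 6 libraries of these groups were used, of 27 in the series, which also holds PC3 cells with RIPK2 guide RNA 10 (3 libraries, RIPK2 knockout), DU145 cells with control guide 1 (3 libraries, WT) or RIPK2 guide 2 (3 libraries, RIPK2 knockout), and libraries not used here. Libraries of mRNA were made with a strand-specific kit, and the values are reads counted per gene. Of the 23462 gene symbols in the PC3 table, 14718 passed the filter on low counts and were tested.

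RIPK2 is a kinase and adaptor that relays signals from NOD1 and NOD2, receptors in the cytosol that sense fragments of bacterial cell walls. Ubiquitin ligases such as XIAP attach chains to RIPK2, and these recruit the TAK1 and IKK kinases, which switch on NF-kB and the stress-activated MAP kinases. In prostate cancer cells RIPK2 has also been described as acting through the kinase MKK7, the product of MAP2K7, on the stability of the MYC protein, which RNA counts do not measure.

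RIPK2 (GRCh38 chr8:89757747-89791063) stood at 59.5, 59.3 and 62.4 CPM in the control libraries and at 21.7, 20.1 and 20.1 CPM with guide 2. CPM is the count of a gene scaled to the same library total in every library. The groups did not overlap, and RIPK2 mRNA fell to a lower but clearly detected level (log2 fold change -1.55, SE 0.056, adjusted p = 1.45e-20). Fold changes are given on the log2 scale, where 1 is a doubling, and each adjusted p comes from edgeR's quasi-likelihood F test with Benjamini-Hochberg adjustment over the genes tested. The counts cover the whole gene, so they show neither the edited bases nor the protein.

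The genes around RIPK2 moved in both directions. NOD1, the receptor for one class of cell wall fragments, was counted 72, 72 and 69 times in the control libraries and 117, 111 and 132 times with guide 2, without overlap, and rose (log2 fold change 0.74, SE 0.12, adjusted p = 5.49e-06). NOD2 did not pass the filter, with at most 1 read in any of the 6 libraries. Of 36 tested genes of the NOD and RIPK2 signalling list, 10 rose and 13 fell, and 13 did not pass the test. Over the 14718 genes tested, 32.1% rose and 31.5% fell, so these shares, 27.8% and 36.1%, are near the background. ERBIN, a scaffold protein that binds NOD2, rose (0.67), as did MAPK9, which encodes the kinase JNK2 (0.66). RBCK1, a subunit of the linear ubiquitin ligase, fell from 139.5 ± 7.37 to 75.3 ± 2.91 CPM (SD, n = 3; -0.89), and MAP2K3, a kinase upstream of p38, also fell (-0.58). For MAP2K7 the control libraries held 73.3, 69.3 and 75.2 CPM and the guide 2 libraries 75.8, 80.6 and 73.6 CPM, which overlapped, and the change did not pass the test (log2 fold change 0.08, SE 0.046, adjusted p = 0.139). MYC mRNA was at 195, 208 and 195 CPM in control and at 149, 147 and 142 CPM with guide 2, and fell (log2 fold change -0.45, SE 0.040, adjusted p = 2.50e-11).

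Across all genes the change was broad and mostly small. In total 9362 of 14718 genes (63.6%) changed, 4728 (32.1%) higher and 4634 (31.5%) lower with guide 2. The median size of the change among them was 0.43 on the log2 scale. The shares of all genes, 32.1% higher and 31.5% lower, are the background for the counts of list members given below. A change of at least 1, a doubling or halving, was met by 1548 genes (10.5%), of which 910 (6.18%) were higher and 638 (4.33%) lower. At a size of at least 3, 132 genes were higher and 95 lower. The 3 guide 2 libraries and the 3 control libraries did not overlap for 9953 genes (67.6%), with 5000 (34.0%) higher in every guide 2 library and 4953 (33.7%) lower. The libraries held 20170292 to 20650819 reads in all, and mitochondrially encoded genes took 4.34% to 4.69% of the reads of these 6 libraries and 2.90% to 3.20% in the guide 10 libraries. The epithelial keratins KRT8 and KRT18 were counted at least 6747 times in each of the 6, and CTNNA1, which PC3 is known to have lost, at most 54 times. The common biological coefficient of variation was 3.55%. Nothing in the labels says that libraries of a group came from separate cultures, so the p-values measure the spread between these libraries, which may be technical. The plot of level against change shows the spread of fold changes over the range of expression.

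**Figure D1:**
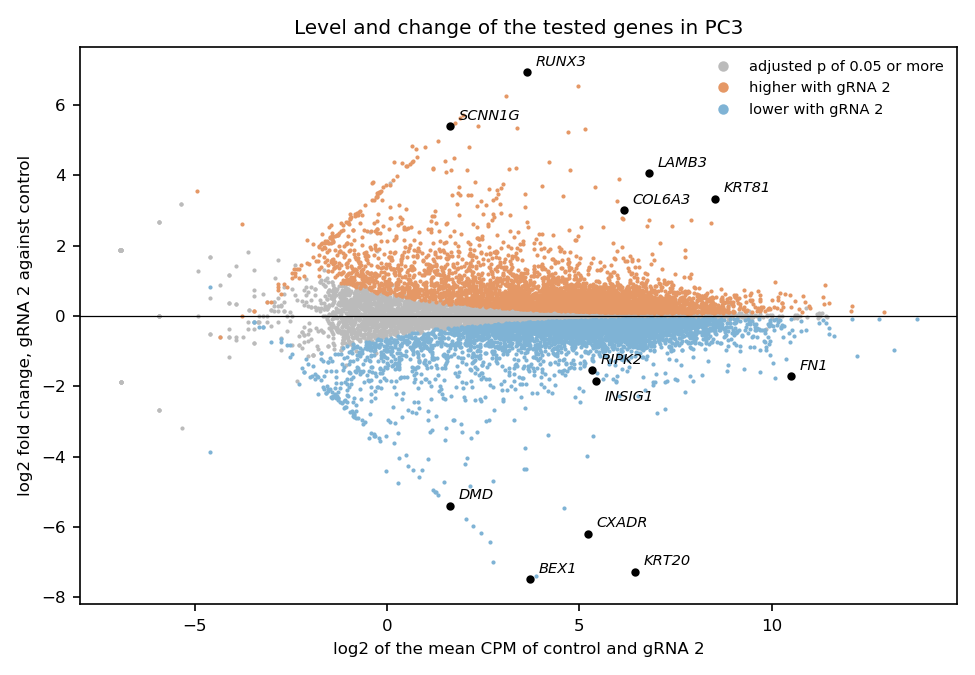
Each point is 1 tested gene, with the log2 of the mean CPM of control and guide 2 on the x axis and the log2 fold change of guide 2 against control on the y axis. Genes with at most 3 counts in every library of 1 group are drawn at their bound, computed against 3 counts per library. Genes higher (orange) and lower (blue) with guide 2 are found over the whole range of levels, and named genes are marked in black.

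A set of genes went between almost no reads and clear expression. With guide 2, 19 genes had at least 30 reads in every library while no control library held over 3, and 15 genes showed the reverse. For genes of this kind a fold change is a bound, computed against 3 reads in each library of the silent group. SCNN1B and SCNN1G encode the beta and gamma subunits of the epithelial sodium channel and lie next to each other on chromosome 16, 61.3 kb apart. SCNN1G (chr16:23182715-23216883) was counted 0, 0 and 0 times in the control libraries and 124, 142 and 114 times with guide 2, at least 41.8-fold higher. SCNN1B (chr16:23278231-23381299) was counted 0, 1 and 2 times in control and 161, 147 and 164 times with guide 2, at least 52.0-fold higher. SCNN1A, the alpha subunit on chromosome 12, was at 3.75, 3.53 and 3.23 CPM in control and 4.14, 4.44 and 4.40 CPM with guide 2, and this change did not pass the test (log2 fold change 0.30, SE 0.14, adjusted p = 0.0641).

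Other genes with almost no reads in control came on with guide 2. SYK, a tyrosine kinase best known from immune receptors, went from 2, 0 and 1 reads to 133, 132 and 145 reads, at least 45.1-fold higher. VIPR1, a receptor for vasoactive intestinal peptide, went from 1, 2 and 1 to 118, 130 and 134 reads. C9orf64 went from 1, 0 and 2 to 155, 117 and 108 reads, and CST4, a secreted cystatin whose close paralogs may share reads with it, from 0, 3 and 2 to 150, 147 and 149. All 4 were at or near 0 in the control libraries and above 100 reads in each guide 2 library. The zinc finger genes ZIC2 and ZIC5, 9.9 kb apart on chromosome 13, came on together. ZIC2 went from 1, 1 and 1 to 56, 72 and 61 reads and ZIC5 from 0, 1 and 0 to 37, 30 and 37 reads. SHH, the sonic hedgehog ligand, went from 1, 2 and 1 to 55, 38 and 39 reads, TP73, a member of the p53 family, from 0, 1 and 2 to 69, 65 and 73, and HEYL, a Notch target gene, from 0, 0 and 0 to 30, 33 and 39. ZIC2, ZIC5, SHH, TP73 and HEYL were picked after their values were seen.

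Other genes were expressed in control and had almost no reads with guide 2. BEX1, a small adaptor of the nervous system on the X chromosome (chrX:103062651-103064240), was counted 570, 476 and 542 times in control and 2, 0 and 1 times with guide 2, at least 178-fold lower. ANGPT4, a ligand of the TIE2 receptor, fell from 240, 208 and 201 to 2, 0 and 0 reads. ZFPM2, a cofactor of GATA factors, fell from 232, 250 and 289 to 1, 2 and 0 reads. All 3 were above 200 reads in each control library. NKD2, an inhibitor of WNT signalling (chr5:1008829-1038943), fell from 196, 194 and 172 to 1, 2 and 1 reads, at least 63.0-fold. DMD, the dystrophin gene, fell from 110, 136 and 129 to 1, 0 and 1 reads, and the chemokine CCL2, named after its values were seen, from 95, 94 and 98 to 0, 0 and 0. KLK3, which encodes the prostate protein PSA, had at most 1 read in any of these 6 libraries. TMEM108-AS1, an antisense RNA, fell from 95, 100 and 107 to 0, 0 and 0 reads; whether the counting used the strand is not given in the sources used here, so its reads may not be told apart from those of its partner. CECR7, a noncoding gene with copies elsewhere, fell from 142, 182 and 165 to 3, 3 and 2 reads.

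**Figure D2:**
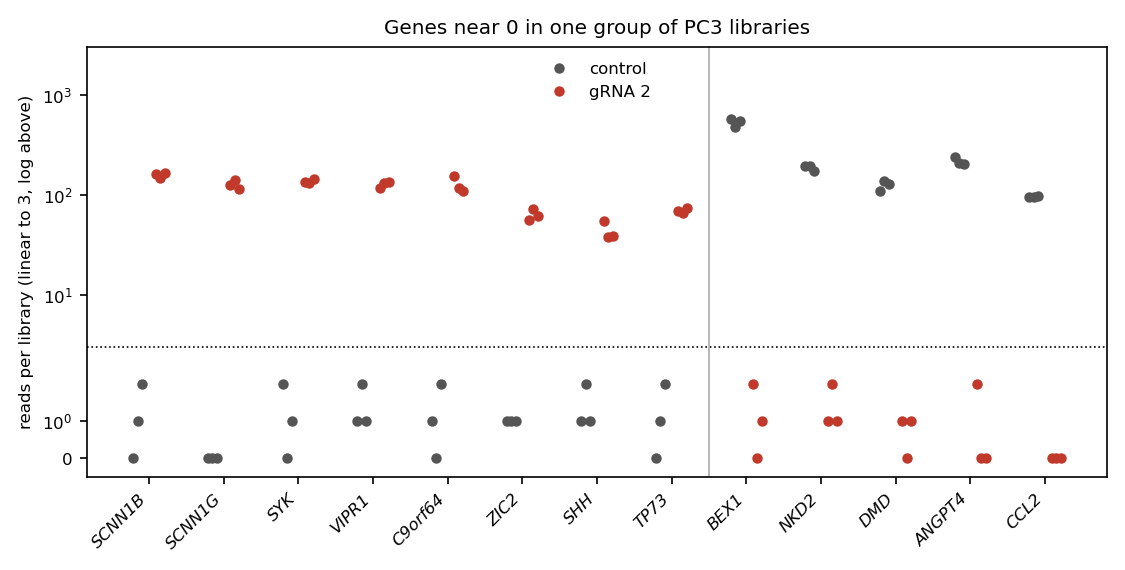
Reads in each control library (grey) and each guide 2 library (red) for 13 genes, on an axis that is linear up to 3 reads (dotted line) and logarithmic above. The 8 genes on the left have at most 3 reads in each control library and the 5 on the right at most 3 in each guide 2 library, and no gene overlaps between the groups.

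To show what DNA precedes the start of genes that came on or went off, the 250 bases before the RefSeq start (GRCh38.p14) of 5 of them are printed 5′ to 3′ on the gene's strand, with each CG pair in capitals. SCNN1B (chr16:23302052-23302301, plus strand) and ZIC2 (chr13:99981534-99981783, plus strand) came on, and BEX1 (chrX:103064172-103064421, minus strand), NKD2 (chr5:1008552-1008801, plus strand) and KRT20 (chr17:40885243-40885492, minus strand) went off or nearly off. The RefSeq starts of SCNN1B, ZIC2 and BEX1 lie inside the genes as drawn in GENCODE. The window of SCNN1B lies wholly inside its gene, and those of ZIC2 and BEX1 overlap theirs in part.
SCNN1B: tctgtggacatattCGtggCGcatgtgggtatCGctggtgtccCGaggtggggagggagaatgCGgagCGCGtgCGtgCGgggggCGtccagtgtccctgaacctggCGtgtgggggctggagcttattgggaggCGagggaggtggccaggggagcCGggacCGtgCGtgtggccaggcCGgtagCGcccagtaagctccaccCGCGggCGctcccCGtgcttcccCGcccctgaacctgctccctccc
ZIC2: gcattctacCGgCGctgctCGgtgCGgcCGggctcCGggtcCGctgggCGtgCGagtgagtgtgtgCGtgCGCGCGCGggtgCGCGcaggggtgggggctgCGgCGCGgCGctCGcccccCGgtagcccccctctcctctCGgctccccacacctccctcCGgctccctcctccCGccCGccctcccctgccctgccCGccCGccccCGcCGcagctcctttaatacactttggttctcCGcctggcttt
BEX1: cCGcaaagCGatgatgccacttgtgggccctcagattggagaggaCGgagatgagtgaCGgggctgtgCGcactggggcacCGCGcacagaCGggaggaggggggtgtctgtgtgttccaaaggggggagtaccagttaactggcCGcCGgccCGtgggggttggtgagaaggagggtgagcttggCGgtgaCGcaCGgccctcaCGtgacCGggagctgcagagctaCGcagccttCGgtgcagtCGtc
NKD2: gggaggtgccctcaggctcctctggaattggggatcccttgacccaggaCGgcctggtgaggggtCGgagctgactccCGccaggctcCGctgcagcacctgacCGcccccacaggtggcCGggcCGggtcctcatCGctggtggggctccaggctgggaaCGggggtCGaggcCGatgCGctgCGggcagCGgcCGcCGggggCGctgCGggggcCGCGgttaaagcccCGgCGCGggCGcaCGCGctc
KRT20: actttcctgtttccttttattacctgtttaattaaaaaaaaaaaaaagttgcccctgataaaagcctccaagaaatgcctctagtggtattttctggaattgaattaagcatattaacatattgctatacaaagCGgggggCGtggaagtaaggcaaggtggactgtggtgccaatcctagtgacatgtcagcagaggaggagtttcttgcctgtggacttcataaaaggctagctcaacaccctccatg

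CG pairs are the sites where vertebrate DNA is methylated, and many promoters are rich in them. These windows hold 22 CG pairs for SCNN1B, 31 for ZIC2, 19 for BEX1 and 26 for NKD2, against 2 for KRT20. The median over the 35116 promoters of the RefSeq table was 11 in windows of the same length, so 4 of the 5 windows were above it. More CG pairs than ZIC2 were held by 9.52% of promoters, more than NKD2 by 17.7%, more than SCNN1B by 25.8%, more than BEX1 by 32.4% and more than KRT20 by 77.1%. Methylation was not measured, and SCNN1G had no entry in the table. Of 15 tested genes that write, read or remove DNA methylation 6 rose and 5 fell, shares near the 32.1% and 31.5% of all genes. Leaving out control replicate 2 or 3, or guide 2 replicate 1 or 3, left 3 of the falls. The de novo methyltransferase DNMT3A rose from 28.96, 29.6 and 28.7 to 43.4, 43.9 and 46.8 CPM (0.62), and MBD2, which binds methylated DNA, fell from 65.3, 64.7 and 61.7 to 41.8, 38.05 and 39.2 CPM (-0.69). MBD2 lies at 50 to 60 Mb of chromosome 18, where 17 of 27 genes fell (median -0.43).

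Further genes rose or fell by a large factor from a level that was low but not 0. RUNX3, a transcription factor of the RUNX family (chr1:24899511-24965121), rose from 4, 3 and 5 reads to 503, 506 and 508 reads (log2 fold change 6.93, SE 0.16, adjusted p = 7.25e-26). EPAS1, which encodes the hypoxia-inducible factor HIF-2 alpha, rose from 31, 41 and 32 to 1396, 1502 and 1310 reads (5.32). CAMK2N1, an inhibitor of the kinase CaMKII, rose from 11, 12 and 17 to 1231, 1234 and 1313 reads (6.53). In each of the 3, the lowest guide 2 library was over 20 times the highest control library. PDPN, the surface glycoprotein podoplanin, rose by 5.33 and TSPOAP1 by 5.41, and FNDC10 by 6.24. CXADR, the cell junction protein that serves as a receptor for adenoviruses, fell from 69.9, 72.2 and 79.1 to 0.838, 0.986 and 1.19 CPM (log2 fold change -6.19, SE 0.11, adjusted p = 7.63e-27). KRT20, an intestinal-type keratin, fell from 170.4, 167 and 184 to 0.838, 1.23 and 1.29 CPM (-7.27). GABRA3, a subunit of the GABA-A receptor, fell by 7.41, TCN1, a vitamin B12 carrier, by 6.99, and the pseudogene NBEAP1, which may share reads with NBEA, fell by 5.46 on the log2 scale.

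Keratins, the intermediate filaments of epithelial cells, moved in both directions. Of 13 tested keratins 7 rose and 5 fell (53.8% and 38.5%, against 32.1% and 31.5% of all genes). KRT81 rose from 69.8, 63.3 and 66.3 to 675, 651 and 680.4 CPM (log2 fold change 3.33, SE 0.041, adjusted p = 2.87e-32), and its close relative KRT86 may share reads with it. KRT7 rose from 97.4, 94.3 and 93.9 to 596, 586 and 585 CPM (2.63), while KRT20 fell as given above and KRT15 fell by 1.09. The libraries of the 2 groups did not overlap for either KRT81 or KRT7, as for 67.6% of all genes tested. For both, the spread within a group was small beside the gap. Over the list of epithelial genes, 12 of 31 rose and 8 fell (38.7% and 25.8%), shares near those of all genes. The desmosome changed in both directions: DSP, its desmoplakin plaque protein, rose from 36.5 ± 1.65 to 108 ± 2.42 CPM (SD, n = 3; 1.57), and DSC3, a desmosomal cadherin, fell from 65.8, 73.3 and 68.0 to 4.14, 4.93 and 4.10 CPM (log2 fold change -3.97, SE 0.074, adjusted p = 4.94e-28). Of 28 mesenchymal genes, 15 rose and 5 fell (53.6% and 17.9%). MYL9, a myosin light chain of contractile cells, rose from 4.34, 3.48 and 4.32 to 41.1, 43.9 and 45.1 CPM (3.42), TGFB2, a TGF-beta ligand, by 3.43 and ZEB2, a repressor of epithelial genes, by 2.10. FN1, which encodes the matrix protein fibronectin, went the other way, from 2139, 2348 and 2217 to 633, 692 and 708 CPM (log2 fold change -1.72, SE 0.060, adjusted p = 3.83e-11), and the collagen crosslinking enzyme LOX fell by 1.74 on the log2 scale.

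Matrix and matrix receptor genes rose more often than they fell. Of 26 tested collagens 16 rose and 6 fell, with a median of 0.62 against 0.01 over all genes tested. COL6A3, a chain of type VI collagen, rose from 15.5, 16.7 and 14.9 to 120.3, 134 and 126 CPM (log2 fold change 3.01, SE 0.064, adjusted p = 5.46e-24). COL7A1, the collagen of anchoring fibrils, rose by 1.33 and COL12A1 by 1.08, while the fibrillar collagen gene COL3A1 fell from 36.4 ± 0.377 to 12.4 ± 1.58 CPM (SD, n = 3; -1.55). Of 27 tested integrins and laminins 13 rose, 3 fell and 11 did not pass the test. LAMB3, a chain of the basement membrane protein laminin-332 (chr1:209614870-209652466), rose from 14.03, 12.6 and 11.5 to 212, 212 and 208 CPM (log2 fold change 4.05, SE 0.056, adjusted p = 5.08e-31), with no overlap. ITGA7, a laminin receptor subunit, rose by 1.65 and LAMC1, another laminin chain, by 0.86. LAMC1 lies at 180 to 190 Mb of chromosome 1, where 27 of 32 genes rose (median 0.78). Plexins and neuropilins are surface receptors for semaphorins, which guide growing axons and moving cells. Of 26 tested plexins, neuropilins and semaphorins 16 rose and 3 fell, with PLXNC1 at 2.87 and NRP2 at 2.80. Invasion proteases and their inhibitors were split, with 13 of 33 higher and 12 lower (39.4% and 36.4%), shares near those of all genes. ADAM12, a membrane metalloproteinase, rose from 0.649, 0.945 and 0.596 to 8.23, 8.28 and 7.22 CPM (log2 fold change 3.43, SE 0.18, adjusted p = 8.79e-17), and SERPINB5, the serpin maspin, fell from 149.95 ± 3.34 to 67.7 ± 1.81 CPM (SD, n = 3; -1.15). Among the genes with the smallest p-values, DPP4, a cell surface peptidase, fell from 345, 356 and 349 to 77.7, 76.9 and 77.6 CPM (-2.18), and the potassium channel gene KCNK15 from 231, 225 and 226 to 32.1, 33.3 and 35.2 CPM (-2.76). G0S2, an inhibitor of fat breakdown, rose from 8.69, 7.86 and 8.30 to 118, 126 and 126 CPM (3.89), while FAM110C fell by 2.65.

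**Figure D3:**
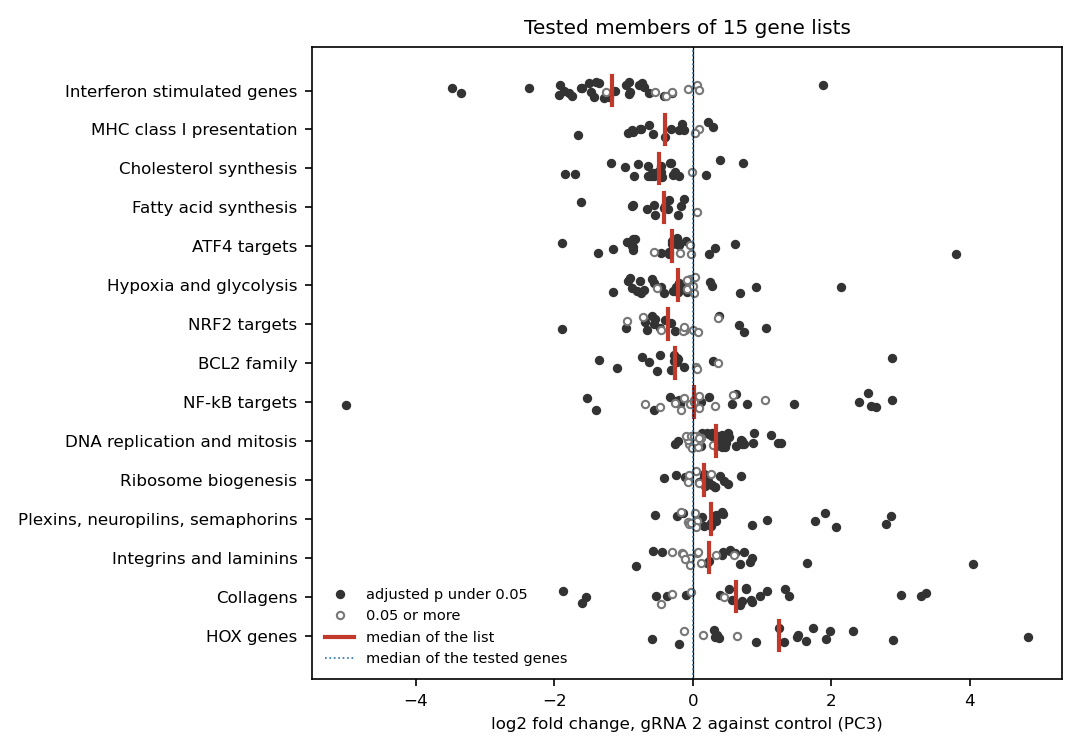
Each point is 1 tested gene of 15 lists, placed by its log2 fold change for guide 2 against control. Filled points passed the test, red bars are list medians, and the dotted line is the median of the tested genes. Interferon stimulated genes lie mostly left of 0 with a median of -1.16, and HOX genes mostly right of it with a median of 1.25, or 0.35 over those with at least 10 counts in every library compared.

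Most interferon stimulated genes fell with guide 2. These genes are switched on when a cell senses interferon, and many act against viruses. Of 36 tested members 28 fell, 1 rose and 7 did not pass the test, and the median was -1.16 against 0.01 over all genes. The fall was more than 1 log2 unit in 18 members. IFITM3, a membrane protein that hinders virus entry, went from 261, 203 and 219 to 72.7, 75.2 and 75.4 CPM (-1.61). The family members IFITM1, IFITM2 and IFITM3 are alike in sequence and may share reads. IFITM1 and IFITM3 lie at 0 to 10 Mb of chromosome 11, where 84 of 105 genes fell (median -0.59). IFITM1 went from 11.9, 7.36 and 5.71 to 0.690, 0.739 and 0.791 CPM (-3.48), BST2, also called tetherin, from 12.4, 8.56 and 5.71 to 2.41, 0.986 and 1.78 CPM (-2.36), and HERC6, a ligase of the family that attaches ISG15, from 20.4, 17.6 and 15.995 to 4.38, 5.32 and 4.40 CPM (-1.93). The groups did not overlap for any of these genes, as for 67.6% of all genes tested. XAF1 was counted 33, 35 and 23 times in control and 1, 0 and 3 times with guide 2, at least 10.2-fold lower. IFITM3, XAF1, IFI6 and MX1 were named after their values were seen.

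The 3 control libraries were unequal for this list. The median log2 difference of its members from the control mean was 0.25, -0.01 and -0.23 in the control libraries and -1.11, -1.05 and -1.03 in the guide 2 libraries, so the groups stayed apart. IFI6 stood at 66.0, 41.5 and 35.4 CPM in control and 16.9, 15.8 and 17.9 CPM with guide 2 (log2 fold change -1.50, SE 0.30, adjusted p = 0.00405). MX1, an antiviral GTPase, was at 22.1, 15.4 and 12.02 CPM in control and 17.0, 18.3 and 17.6 CPM with guide 2, which overlapped, and did not pass the test (log2 fold change 0.10, SE 0.28, adjusted p = 0.786). Without the control library lowest for the list (replicate 3) its log2 fold change was -0.090. Leaving out 1 control library at a time moved the list's median between -1.32 and -0.98. OASL, a relative of the 2-5A synthetases, was the 1 member that rose, from 4.89, 4.53 and 4.62 to 17.4, 17.8 and 16.6 CPM (log2 fold change 1.88, SE 0.096, adjusted p = 5.88e-17).

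Genes of MHC class I antigen presentation, many of which respond to interferon, also held more falls than rises. Of 17 tested members 13 fell and 2 rose, with a median of -0.40. TAP1, a subunit of the transporter that brings peptides into the endoplasmic reticulum, fell from 87.4, 82.5 and 76.7 to 43.6, 44.2 and 41.2 CPM (log2 fold change -0.94, SE 0.050, adjusted p = 1.85e-16). NLRC5, which switches on class I genes, fell by 0.86, and ERAP2, a peptidase that trims peptides, by 0.77. ERAP1, a related peptidase, rose from 28.0 ± 1.67 to 34.4 ± 1.68 CPM (SD, n = 3; 0.30), and TAP2, the other subunit of the transporter, rose by 0.21. Leaving out control replicate 3 or guide 2 replicate 2 left ERAP1 as the 1 rise in the list.

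Most lipid synthesis genes fell with guide 2. SREBP transcription factors switch on the enzymes of cholesterol and fatty acid synthesis when sterols run low, and INSIG1 holds them back. Of 25 tested genes of cholesterol synthesis and uptake 21 fell and 3 rose, and the median was -0.49. INSIG1 (chr7:155297776-155310235), itself an SREBP target, fell from 69.6, 63.6 and 70.2 to 20.1, 16.9 and 19.7 CPM (log2 fold change -1.84, SE 0.060, adjusted p = 1.21e-21). STARD4, a sterol carrier, went from 32.4, 30.6 and 30.5 to 9.31, 9.96 and 9.59 CPM (-1.70). Both genes had every guide 2 library below every control library, as did 33.7% of all genes tested. The last enzyme of one branch of the pathway, DHCR7, was picked after its value was seen and fell by 0.78. The 3 members that rose, PMVK (0.39) among them, lie on chromosome 1, where 5 members of the list are found. Off chromosome 1, 19 of 20 members fell and 0 rose.

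For fatty acid synthesis, 13 of 14 tested genes fell, none rose, and the median was -0.41. SCD, the desaturase that makes monounsaturated fatty acids, fell from 1259, 1233 and 1281 to 408, 407 and 423 CPM (log2 fold change -1.61, SE 0.034, adjusted p = 8.76e-27). SREBF1, which encodes SREBP1, fell from 93.1, 92.4 and 91.3 to 49.2, 48.4 and 53.1 CPM (-0.88), and FADS2, a desaturase of polyunsaturated fatty acids, by 0.87. FASN, the fatty acid synthase, named after its value was seen, was at 839, 886 and 856 CPM in control and 605, 672 and 656 CPM with guide 2 (log2 fold change -0.42, SE 0.083, adjusted p = 0.00272). The libraries of the groups did not overlap for any of these 4 genes, as for 67.6% of all genes tested. The median log2 difference of the list from the control mean was -0.45, -0.37 and -0.43 in the guide 2 libraries.

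Lists of stress response genes held more falls than rises. ATF4 is the transcription factor of the integrated stress response and drives amino acid uptake and synthesis. Of 28 tested ATF4 targets 20 fell and 4 rose, with a median of -0.30. SLC7A11, the cystine transporter that feeds glutathione synthesis and is a target of NRF2 too, fell from 90.9, 102 and 98.3 to 26.5, 27.6 and 24.3 CPM (log2 fold change -1.89, SE 0.056, adjusted p = 1.60e-22). DDIT3, which encodes the factor CHOP, fell from 39.7, 34.4 and 35.4 to 13.2, 12.9 and 16.2 CPM (-1.37). DDIT4, an inhibitor of mTORC1, fell from 21.3, 17.7 and 19.4 to 8.13, 8.72 and 9.34 CPM (-1.16). These 3 genes did not overlap between groups, as 67.6% of all genes tested did not. PHGDH, the first enzyme of serine synthesis, rose by 0.61 and lies on chromosome 1. Of 24 NRF2 targets 11 fell and 4 rose, with FTH1, the ferritin heavy chain whose pseudogenes may share reads, at -0.96. Of 19 chaperones of the endoplasmic reticulum 13 fell and 4 rose. Of 31 genes of hypoxia and glycolysis 19 fell and 5 rose, and NDRG1, a hypoxia-responsive gene, fell from 405 ± 14.2 to 211 ± 4.71 CPM (SD, n = 3; -0.94). In the BCL2 family, which controls cell death at mitochondria, 13 of 18 tested members fell and 2 rose. Its members PMAIP1, which encodes the death-promoting protein NOXA, at -1.36, and BCL2, which protects cells, at -0.74, both fell. PMAIP1 lies at 50 to 60 Mb of chromosome 18, where 17 of 27 genes fell. BCL2 lies at 60 to 70 Mb, where 16 of 21 genes fell (median -0.79).

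Most cell division genes rose. Of 43 tested genes of DNA replication and mitosis 28 rose, 2 fell and 13 did not pass the test, with a median of 0.34. CDC20, an activator of the anaphase-promoting complex, rose from 45.7, 44.7 and 46.6 to 114, 108 and 111 CPM (log2 fold change 1.28, SE 0.044, adjusted p = 3.23e-21). KIF20A, a motor of cytokinesis, rose from 34.9, 36.5 and 36.2 to 83.4, 85.0 and 84.4 CPM (1.23), and CDC25C, a phosphatase that starts mitosis, by 1.13. The members that fell were PCNA, the sliding clamp of DNA replication, at -0.26, and RRM1, a subunit of ribonucleotide reductase, at -0.22. PCNA lies at 0 to 10 Mb of chromosome 20, where 55 of 70 genes fell. RRM1 lies at 0 to 10 Mb of chromosome 11, where 84 of 105 fell. KIF20A and CDC25C lie at 130 to 140 Mb of chromosome 5, where 60 of 71 genes rose, and CDC20 lies on chromosome 1. The part of position in these values was not tested. Off chromosome 1 the counts were 25 higher and 2 lower of 40. Of 28 genes of ribosome biogenesis 19 rose and 3 fell, by smaller amounts (median 0.17). GNL3, a nucleolar GTPase, rose from 123 ± 3.04 to 176 ± 7.94 CPM (0.51), and NCL, nucleolin, fell from 1026 ± 11.2 to 773 ± 13.3 CPM (SD, n = 3; -0.41). GNL3 lies at 50 to 60 Mb of chromosome 3, where 77 of 89 genes rose (median 0.47). NCL lies at 230 to 240 Mb of chromosome 2, where 41 of 59 genes fell (median -0.48). The part of position was not tested here either. Of 12 genes of the MYC and MXD network 4 rose and 6 fell. MAX, the partner of MYC, rose by 0.31, and MXI1, which competes with MYC for MAX, fell by 0.62.

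**Figure D4:**
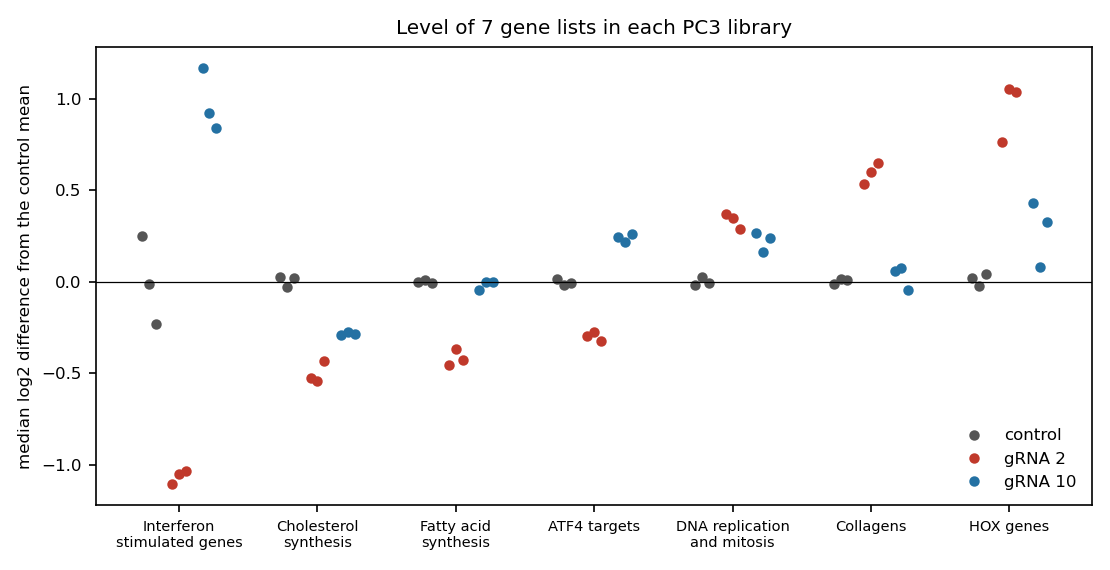
For 7 gene lists, each point is 1 PC3 library (control grey, guide 2 red, guide 10 blue), placed at the median over tested members of the log2 difference from the control mean. The guide 2 libraries lie below the control libraries for interferon stimulated genes, both lipid lists and ATF4 targets, and above them for cell division genes, collagens and HOX genes.

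NF-kB targets, downstream of RIPK2 in its known pathway, moved in both directions. Of 33 tested targets 11 rose and 9 fell, shares near those of all genes, and the median was 0.02. IL1B, which encodes the inflammatory cytokine interleukin-1 beta, rose from 14.4, 14.6 and 14.8 to 80.4, 87.6 and 84.3 CPM (log2 fold change 2.53, SE 0.056, adjusted p = 3.68e-26). NFKBIA, the inhibitor that NF-kB itself switches on, rose from 12.8, 15.02 and 13.7 to 37.0, 40.5 and 36.9 CPM (1.46), and PLAU, the urokinase protease, from 299, 307 and 294 to 517, 521 and 505 CPM (0.78). Each of the 3 was higher in all guide 2 libraries, as were 34.0% of all genes tested. The neutrophil-attracting chemokines went the other way: CXCL1 fell from 18.2, 19.0 and 19.5 to 6.996, 5.72 and 6.97 CPM (log2 fold change -1.52, SE 0.087, adjusted p = 1.06e-15) and CXCL8 from 8.89, 7.56 and 7.55 to 3.84, 2.61 and 2.67 CPM (-1.39). SOD2, the mitochondrial superoxide dismutase, fell by 0.56.

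Most HOX genes, which set position along the body axis in development, rose from low levels. Of 21 tested members 16 rose and 2 fell, with a median of 1.25, and 11 of the rises were over 1 log2 unit. HOXC13 rose from 3.45, 3.18 and 4.07 to 13.9, 14.7 and 13.7 CPM (log2 fold change 1.98, SE 0.11, adjusted p = 2.58e-16). HOXC8 went from 0, 2 and 4 reads to 69, 68 and 47 reads and HOXC10 from 7, 1 and 4 to 28, 29 and 35, both picked after their values were seen. The most abundant member, the prostate gene HOXB13, fell from 1527, 1472 and 1511 to 992, 982 and 1024 CPM (log2 fold change -0.59, SE 0.033, adjusted p = 8.89e-16). With at least 10 counts required in every library compared, 9 rises were left in the list and its median was 0.35.

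Of 35 genes of the WNT pathway 17 rose and 11 fell (48.6% and 31.4%, against 32.1% and 31.5% of all genes). TCF7, a transcription factor of that pathway, rose from 3.00, 3.63 and 3.43 to 21.4, 21.5 and 21.8 CPM (2.68), and the receptor TNFRSF19 by 3.31, while NKD2 was lost as given above. Of 43 genes of the TGF-beta and BMP pathway 21 rose and 14 fell (48.8% and 32.6%). INHBB, a subunit of activin B, rose from 28.9, 29.4 and 30.6 to 198, 211 and 181 CPM (log2 fold change 2.73, SE 0.051, adjusted p = 6.20e-27), and NOG, the BMP antagonist noggin, fell from 105, 109 and 109.8 to 21.8, 22.5 and 22.2 CPM (log2 fold change -2.28, SE 0.050, adjusted p = 3.68e-26). The BMP targets ID2 and ID3 went opposite ways, at -1.67 and 3.17. Of 16 EGF family receptors and ligands 10 rose and 3 fell. In the list of p53 targets, 10 of 24 rose and 7 fell (41.7% and 29.2%), shares near those of all genes. Its member BTG2, a brake on cell division, was at 2.91.

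Markers of other cell types were checked in the same libraries. The summed level of leukocyte markers was 0.599 to 0.894 CPM in the control libraries and 1.23 to 1.93 CPM with guide 2, with the pan-leukocyte gene PTPRC at 2, 0 and 0 reads in control and 3, 2 and 6 with guide 2 and CD3D at 0. Endothelial markers summed to 20.5 to 21.4 CPM in the control libraries and 45.8 to 51.1 CPM with guide 2, and 4 of 4 tested members rose. Among these, PECAM1 was counted 34, 45 and 35 times in control and 185, 197 and 177 times with guide 2, and 3 other markers of that list had at most 3 reads in each library. Fibroblast markers summed to 75.3 to 77.8 CPM in the control libraries and 56.9 to 67.5 CPM with guide 2, with THY1 at 0, and COL1A1 rose (0.84) while PDGFRA fell (-2.99). Luminal prostate markers summed to 1955 to 2029 CPM in the control libraries and 1317 to 1361 CPM with guide 2, most of it HOXB13. Neuroendocrine markers summed to 125 to 134 CPM in the control libraries and 124 to 125 CPM with guide 2 and basal markers to 836 to 886 CPM in the control libraries and 785 to 817 CPM. The part of any other cell type in the results was not tested.

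The changes were not spread evenly over the chromosomes. Of the genes tested, 14287 had a single position in GENCODE 29 on GRCh38. On chromosome 1, 1089 of 1456 genes (74.8%) rose and 84 fell, where 32.1% of all genes rose. The median there was 0.44, with the middle 50% of genes between 0.21 and 0.72, and off chromosome 1 it was -0.03. Chromosome 1 held 23.03% of all genes that rose and 9.89% of the genes tested. The median was above 0 on both arms: among segments of 10 Mb with at least 20 tested genes, the median was 0.61 at 110 to 120 Mb and 0.78 at 180 to 190 Mb. RUNX3, LAMB3 and LAMC1, among other named genes, lie on this chromosome.

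Other chromosomes and segments stood lower or higher. On chromosome 18, 118 of 210 genes (56.2%) fell and the median was -0.32, and on chromosome 20, 210 of 402 (52.2%) fell with a median of -0.20, where 31.5% of all genes fell. At 0 to 10 Mb of chromosome 11, 84 of 105 genes fell (median -0.59), and at 40 to 50 Mb, 42 of 46 genes fell (median -0.50). At 140 to 150 Mb of chromosome 7 44 of 54 genes fell (median -0.59), and at 150 to 160 Mb, which holds INSIG1, 36 of 44 genes fell (median -0.53). On chromosome 14, 63 of 77 genes rose (median 0.39) at 70 to 80 Mb, and 48 of 57 genes fell (median -0.51) at 100 to 110 Mb. At 130 to 140 Mb of chromosome 5, 60 of 71 genes rose (median 0.56). From 180 to 250 Mb of chromosome 2, which holds FN1, COL3A1 and NCL, the medians of the 10 Mb segments ran from -0.67 to -0.43. The lowest was at 220 to 230 Mb, where 18 of 21 genes fell. At 40 to 50 Mb of chromosome 3, which holds COL7A1, 88 of 114 genes rose (median 0.40). At 50 to 60 Mb, which holds GNL3, 77 of 89 rose (median 0.47). A segment's genes share their position and are not replicates, the number of DNA copies was not measured, and the part of copy number in these values was not tested. The box plot by chromosome shows these medians beside those of DU145.

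**Figure D5:**
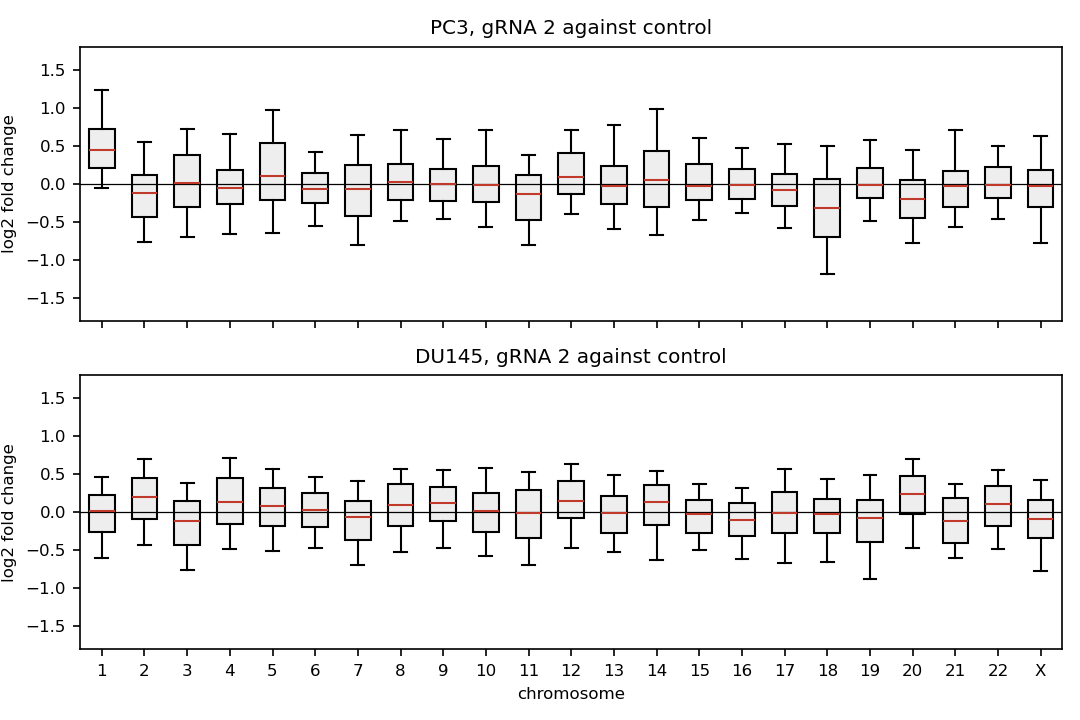
Boxes give the median (red) and middle 50% of log2 fold changes for guide 2 against control on each chromosome, with whiskers from the 10th to the 90th percentile, in PC3 (top) and DU145 (bottom). In PC3 the median on chromosome 1 is 0.44 and on chromosome 18 -0.32, and in DU145 the same chromosomes have medians of 0.01 and -0.03.

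A second edited PC3 line, with RIPK2 guide RNA 10, was compared with the same control libraries, so its values are given side by side and no likeness is drawn from them. RIPK2 stood at 25.5, 28.3 and 27.8 CPM with guide 10. Against control, 10815 genes (73.5%) changed with guide 10, 5571 (37.9%) higher and 5244 (35.6%) lower. Guide 2 and guide 10 differed directly in 10799 genes (73.4%), with 5366 (36.5%) higher and 5433 (36.9%) lower with guide 2. Of the 36 interferon stimulated genes, 30 rose and 2 fell with guide 10, and the median was 1.00, against 1 rise, 28 falls and -1.16 with guide 2. MX1 stood at 446, 337 and 338 CPM with guide 10, far above both other groups, and differed between the guides (log2 -4.40, adjusted p = 1.28e-06). IL1B was at 1.499, 1.54 and 1.35 CPM with guide 10, below control, while guide 2 was above it (log2 5.84, adjusted p = 5.14e-31). DSC3 was lowest with guide 2 and stood at 239, 256 and 246 CPM with guide 10 (log2 -5.81, adjusted p = 2.21e-33). For cholesterol synthesis 17 of 25 genes fell with guide 10 (median -0.26), and for fatty acid synthesis 7 fell and 7 rose of 14 (median -0.05). ATF4 targets had a median of 0.28 with guide 10, and chromosome 1 one of 0.43.

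Some genes changed with guide 2 while guide 10 lay close to control, within 0.2 log2 units. COL6A3 stood at 16.4, 15.4 and 12.8 CPM with guide 10, near its control level given above, and differed between the guides (log2 3.09, adjusted p = 1.29e-24). SDC2, a heparan sulfate proteoglycan, was at 18.4, 17.6 and 19.1 CPM in control, 124, 121 and 124 CPM with guide 2 and 19.1, 17.6 and 19.6 CPM with guide 10 (log2 2.71, adjusted p = 2.28e-28). SLC4A4, a bicarbonate cotransporter, and the pseudogene HTR7P1 had the same pattern, with guide differences of 1.95 and 1.60. Among the falls, ABHD3, a phospholipase, was at 68.6, 64.6 and 64.1 CPM in control, 19.4, 17.9 and 18.5 CPM with guide 2 and 66.0, 66.9 and 69.9 CPM with guide 10 (log2 -1.86, adjusted p = 1.73e-23). NPR2, a natriuretic peptide receptor, was at 14.1, 13.9 and 14.5, 3.25, 3.01 and 3.66 and 13.7, 13.8 and 13.8 CPM in the same order (log2 -2.06, adjusted p = 8.99e-18). THNSL2 differed between the guides by -2.95. These genes were chosen by the rule for this pattern, so their order is a description.

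DU145, a prostate cancer line grown from a brain metastasis, was edited with the same guide and has its own 3 control libraries. RIPK2 fell there from 42.4 ± 2.67 to 11.8 ± 1.77 CPM (SD, n = 3), and the difference between the falls did not pass the test (PC3 minus DU145 0.29, SE 0.13, adjusted p = 0.0713). In DU145, 5072 of 14908 genes (34.0%) changed, 2543 (17.1%) higher and 2529 (17.0%) lower. The DU145 guide 2 libraries were more spread for some genes, with an SD for MYC of 37.5 CPM against 3.16 CPM in PC3. Calls depend on the spread, so the counts of the lines do not compare the sizes of their responses. Of 13472 genes tested in both lines, 8669 changed in PC3 and 4541 in DU145. In both lines 3102 changed, which is 35.8% of the PC3 calls and 68.3% of the DU145 calls. Over all genes tested, 34.0% changed in DU145 and 63.6% in PC3, so these shares are near the background. The direction was the same for 1588 of the 3102 genes (51.2%) and opposite for 1514. Across genes the fold changes of the lines had a Pearson r of 0.0050 and a Spearman rho of 0.021, which describes 13472 genes that are not independent. The change itself differed between the lines in 6779 of 15764 genes (43.0%), 3338 (21.2%) with a higher value in PC3 and 3441 (21.8%) with a lower one. MYC fell in PC3 and rose in DU145, from 84.9 ± 3.52 to 166 ± 37.5 CPM (SD, n = 3), with a difference of -1.43 (SE 0.14, adjusted p = 3.44e-07). The junction gene CXADR, nearly lost in PC3, was at 53.3 ± 0.610 CPM in DU145 control and 53.8 ± 10.8 CPM with guide 2, with a difference of -6.21 (SE 0.23, adjusted p = 8.14e-13). RUNX3 was already expressed in DU145 control, at 61.0 ± 4.89 CPM, and fell to 40.3 ± 4.33 CPM.

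Gene lists differed between the lines in their counts, and these list differences were not tested. In DU145 24 of 32 tested NF-kB targets rose and 2 fell, with a median of 1.02, against 11 and 9 in PC3. CXCL8, lower with guide 2 in PC3, rose in DU145 from 10.3 ± 0.792 to 96.3 ± 47.6 CPM (SD, n = 3), and its change differed between the lines by -4.63 (SE 0.39, adjusted p = 3.07e-08). NFKBIA rose in both lines, by 1.46 in PC3 and 1.16 in DU145, and the difference was 0.30 (SE 0.12, adjusted p = 0.0579). Of 28 interferon stimulated genes tested in DU145 13 fell and 1 rose (median -0.46). Of 25 cholesterol genes 6 fell and 0 rose, and INSIG1 differed between the lines by -1.90 (SE 0.23, adjusted p = 2.25e-06). For ATF4 targets 18 of 28 rose and 3 fell, and DDIT3, lower in PC3, rose from 12.4 ± 0.525 to 35.3 ± 5.25 CPM (SD, n = 3), with a difference of -2.89 (SE 0.15, adjusted p = 7.86e-11). Of 19 HOX genes 9 fell and 1 rose.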

How the data were processed

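The authors deposited raw read counts per gene symbol, 1 table per cell line. The submitters' processing notes name FastQC, STAR, edgeR and hg38; the counting program and the annotation are not given in the sources used here. Counts of 2 duplicated symbols were summed, leaving 23462. With edgeR 4.0.16 in R 4.3.3, genes were kept by filterByExpr (minimum count 10, minimum total 15), scaled by TMM and fitted over all 9 PC3 libraries with group as the only term; contrasts were tested by the quasi-likelihood F test, and a call is an adjusted p under 0.05. CPM use TMM library sizes. SE is the fold change divided by the root of F. The difference between PC3 and DU145 was a contrast in 1 model of 18 libraries (15764 genes). Bounds used 3 counts per library. DESeq2 1.42.0, RLE factors, other filters, a replicate block and leaving out each library were alternatives. Library totals differed by little, so depth was alike; 3 reads are 0.144 to 0.150 CPM.

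The members and gene lists were chosen with earlier results of these data known, and the lists were written from general knowledge of each pathway. Genes named are RIPK2, NOD1, NOD2, MAP2K7 and MYC; the 12 largest rises and falls without overlap and at least 100 counts on average in the higher group; up to 3 each way per list at that level; the 4 smallest p-values each way not already named; the 4 largest differences each way from guide 10 where guide 10 was within 0.2 of control, and from DU145 (at least 100 counts in both lines); the 5 most abundant genes silent in each group (at most 3 counts, against at least 30); and cell type markers. Others are marked in the text. On simulated counts for this comparison (14489 genes at 1.5-fold, 14502 at 2-fold), 76.3% of 198 genes changed by 1.5-fold and 89.3% of 197 changed by 2-fold were recovered, with 16 and 18 false calls. Only these genes were changed in the simulation, whereas 63.6% of genes changed in the data. Its false calls therefore do not speak for a change this broad. The 22Rv1 table was not used here, and some genes are not reported here.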

Additional observations from a re-analysis of the deposited data

Results flagged for a closer look

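The change with guide 2 differed between PC3 and DU145 in 6779 genes by the test of the difference between lines, PC3 minus DU145. For that reason NOD1, MYC, and genes among the largest changes in PC3 or the largest differences between the lines are given here. Other named genes also passed this test. NOD1 rose by 0.74 in PC3 and went from 14.8 ± 0.432 to 11.4 ± 0.822 CPM in DU145 (SD, n = 3), a difference of 1.11 (SE 0.14, adjusted p = 5.19e-06). MYC differed by -1.43 and CXADR by -6.21, PC3 minus DU145. RUNX3 differed by 7.52 (SE 0.20, adjusted p = 8.94e-15). EPAS1 rose in PC3 and went from 138 ± 3.77 to 181 ± 57.4 CPM in DU145 (SD, n = 3), a difference of 4.92 (SE 0.27, adjusted p = 1.54e-10). CAMK2N1 differed by 6.15 (SE 0.23, adjusted p = 8.14e-13) and FNDC10 by 6.72 (SE 0.38, adjusted p = 1.79e-10), and neither passed the test in DU145. Genes silent in 1 PC3 group have no usable size, and only the adjusted p of the difference is given. It was 2.99e-08 for SYK, 1.73e-10 for C9orf64 and 8.62e-10 for VIPR1, which came on in PC3. It was 3.92e-10 for ZFPM2, 9.54e-10 for NKD2 and 1.24e-12 for CECR7, which went off in PC3. In DU145, C9orf64 was at 82.4 ± 3.32 CPM in control and 82.9 ± 10.3 CPM with guide 2, and NKD2 at 24.9 ± 0.865 and 32.3 ± 10.2 CPM (SD, n = 3).

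A pair of genes fell in PC3 and came on in DU145. FAM110C went from 257 ± 11.2 to 41.1 ± 0.365 CPM in PC3 and from 0.821 ± 0.133 to 14.4 ± 2.00 CPM in DU145 (SD, n = 3), a difference of -6.77 (SE 0.16, adjusted p = 8.00e-16). MAL2, a protein of membrane trafficking in epithelial cells, went from 502 ± 5.35 to 379.7 ± 9.20 CPM in PC3 and from 0.870 ± 0.298 to 66.9 ± 6.63 CPM in DU145 (SD, n = 3), a difference of -6.67 (SE 0.15, adjusted p = 7.95e-16).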

How the results depend on the processing

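The number of genes changed by guide 2 was 8524 with DESeq2 and 9745 without a filter on low counts, around 9362, and 8770 to 8950 when 1 library was left out. The count with a change of at least 1 log2 unit was 913, against 1548, when 10 counts were required in every library compared, a rule that drops genes silent in 1 group. The same rule left 7 rises of 11 among NF-kB targets, 9 of 16 among HOX genes (median 0.35, against 1.25) and 1 of 2 in the BCL2 family. The difference between PC3 and DU145 covered 5859 to 8152 genes over the alternatives run, around 6779. The highest count came without DU145 guide 2 replicate 3, and the lowest with only the libraries compared. The rises among cytosolic ribosomal proteins were 9, against 18, without PC3 control replicate 2, and the falls 19, against 11; the rises were 11 without guide 2 replicate 3, and the falls 17 without a filter and 19 with the replicate block. A fit with the replicate number as a block called 9509 genes for guide 2 against control. Deviations of same-numbered libraries had correlations of 0.022, 0.024 and 0.029, against -0.055 to 0.034 for the other combinations. Not every library correlated best with its own number. The numbers come from the sample titles and differ in part from the library names, so this check cannot decide whether libraries were paired. Of 252 named genes called, 7 lost the call in at least 1 of 12 alternatives (MGA, NOP56, TAP2, PCK2, BTC, PLXNA3 and SYP), SCNN1A gained one with only the compared libraries (adjusted p = 0.0458), and MX1, at 0.10, changed sign, to -0.090 without PC3 control replicate 3 (adjusted p = 0.798), with 0.36 without control replicate 1. The cause was not tested. The depth limits genes near 3 reads per library, for which only bounds are given.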

Other observations

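Energy and translation genes shifted by small amounts with guide 2. Of 73 nuclear genes of oxidative phosphorylation 32 fell and 16 rose, with a median of -0.11. On chromosome 1 all 6 tested members of that list rose, and off it 10 rose and 32 fell of 67. Of 15 mitochondrially encoded genes 5 rose and 7 fell, with a median of 0.004. Of 78 cytosolic ribosomal protein genes, whose pseudogenes may share reads, 18 rose, 11 fell and 49 did not pass the test, and over the alternatives run the rises ranged from 9 to 26 and the falls from 9 to 19. In the list of metallothioneins and zinc handling, all 5 tested members rose, among them the metal-binding protein gene MT2A, from 96.1, 94.0 and 102 to 200.1, 201 and 196 CPM (log2 fold change 1.03, SE 0.057, adjusted p = 1.42e-11), whose paralogs may share reads. Requiring 10 counts in every library left 3 of them. Of 14 S100 genes, 13 of which lie on chromosome 1, 7 rose and 3 fell.

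Growth-signal genes moved in both directions. Of 22 tested AP-1 and immediate early genes 8 rose and 10 fell (36.4% and 45.5%, against 32.1% and 31.5% of all genes). The AP-1 subunits went opposite ways, with JUN at 49.0, 50.9 and 48.4 CPM in control and 80.1, 78.8 and 73.0 CPM with guide 2 (0.64) and JUND at 75.8, 75.1 and 77.4 and 43.6, 45.7 and 48.9 CPM (-0.73). DUSP5, a phosphatase that acts on ERK, fell by 0.96. Of 10 tested BEX and TCEAL genes, neighbours of BEX1 in 1 family on the X chromosome, 4 rose and 3 fell. BEX4 rose from 3.99, 3.33 and 3.58 to 5.62, 6.01 and 6.03 CPM (0.69) and BEX3 fell by 0.40, while BEX1 went from 570, 476 and 542 reads to 2, 0 and 1. Of 25 chemokines and cytokines 10 rose and 6 fell (40% and 24%), and 5 of the rises were left with 10 counts required in every library. Among cancer testis antigens, MAGEA3, whose paralogs may share reads, rose from 24, 29 and 28 to 1019, 1025 and 1041 reads (log2 fold change 5.23, SE 0.094, adjusted p = 2.29e-28) and PRAME fell by 0.75.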
